A study of Mus musculus with 7 samples.

Results

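The genes described here encode the machinery of autophagy in megakaryocyte progenitors (MkPs) of mouse bone marrow. They were taken by symbol from the count table of the study: the numbered Atg genes, the Map1lc3 and Gabarap genes, Dram1 and Dram2, Ulk1 to Ulk4, Wipi1, Wipi2, Becn1, Sqstm1, Bnip3, Bnip3l, Rb1cc1, Pik3c3, Uvrag, Ambra1 and Tfeb, as far as they were annotated as protein-coding. This gave 41 of the 21615 genes in the table, and 40 of them were among the 16653 genes with enough reads to be tested. Ulk4, a catalytically inactive relative of the ULK kinases, was the gene left untested, with 104, 0 and 0 reads in CD48-/lo MkPs and 7, 30, 0 and 5 reads in CD48hi MkPs.

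In autophagy, a cell encloses cytoplasm, organelles or aggregates in a double membrane, the autophagosome, which fuses with the lysosome for degradation of its contents. A kinase complex starts the process, a lipid kinase complex marks the site, lipid carriers feed the growing membrane, and a ubiquitin-like conjugation system attaches ATG8 proteins to it, where cargo receptors bind. In the blood lineages autophagy is known for its part in the maintenance of stem cells and in the clearance of mitochondria from maturing red cells. DRAM1, a lysosomal membrane protein, is known as a p53 target that promotes autophagy in human cells, and DRAM2 is its close relative.

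The study compared the transcriptomes of MkP subsets that were separated by the level of the surface protein CD48. MkPs were sorted from the bone marrow of wild-type C57BL/6 mice as lin- CD117+ Sca-1- CD150+ CD41+ cells, and the CD48-/lo subset (3 libraries, made from 5784, 5348 and 6497 cells) was set against the CD48hi subset (4 libraries, made from 14033, 15489, 17667 and 20826 cells). No treatment or genetic change was part of the comparison, the labels give neither age nor sex, and mice of both sexes were used in the study. The paper states a general age range in weeks for mice at the start of experiments, and does not tie it to these libraries. The labels do not say whether each library came from separate mice, so the p-values measure only the spread between these libraries. Replicate numbers 1, 3 and 4 occur in both subsets. The labels do not say what libraries of 1 number share, and the main test did not pair them. The libraries held 48899037 to 51161449 counted reads in CD48-/lo MkPs and 51537445 to 69324909 in CD48hi MkPs.

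Markers were read first. Pf4 (platelet factor 4) stood at 3353, 1537 and 3989 CPM (read counts scaled to the library size with TMM factors) in CD48-/lo MkPs and at 1899, 2340, 863 and 810 CPM in CD48hi MkPs, and Itga2b, which encodes the sorted antigen CD41, was at 782 CPM or more in every library. By the edgeR test described below, calls were counted in each marker list. The summed level of 11 granulocyte-monocyte markers was 209 to 454 CPM in CD48-/lo MkPs and 487 to 760 CPM in CD48hi MkPs, with Mpo and Irf8 called lower in CD48-/lo MkPs. Lyz2 of the same list lay the other way, with 309, 147 and 299.9 CPM in CD48-/lo MkPs and 78.0, 146, 103 and 87.8 CPM in CD48hi MkPs (adjusted p = 0.149 by edgeR and 0.0159 by DESeq2), and it made up most of the CD48-/lo sums. For 8 basophil and mast cell markers the sums were 10.8 to 27.7 CPM in CD48-/lo MkPs and 46.5 to 128 CPM in CD48hi MkPs, with Mcpt8 called lower and Cd200r3 without a read in CD48-/lo MkPs, and for 12 erythroid markers they were 307 to 682 CPM in CD48-/lo MkPs and 266 to 321 CPM in CD48hi MkPs, with Rhd, Hba-a1 and Hba-a2 called higher. Klf1 and Epor of the erythroid list lay the other way. They averaged 75.5 and 47.2 CPM in CD48-/lo MkPs and 123 and 65.5 CPM in CD48hi MkPs, and neither was called. The erythroid sums of the subsets overlapped, and Car1 made up 323 CPM of the sum in CD48-/lo replicate 4. EdgeR called no marker among 11 megakaryocyte genes (sums of 3059 to 5887 CPM in CD48-/lo MkPs and 2841 to 4303 CPM in CD48hi MkPs), 9 lymphoid genes, of which 3 were tested (14.4 to 37.6 CPM in CD48-/lo MkPs and 14.3 to 25.0 CPM in CD48hi MkPs, with Dntt and Cd3g at 0 in CD48-/lo MkPs) and 8 stem cell genes (209 to 231 CPM in CD48-/lo MkPs and 89.6 to 182 CPM in CD48hi MkPs). Most of each stem cell sum came from Ctnnal1, whose groups overlapped. It had 106, 150 and 150 CPM in CD48-/lo MkPs and 101, 57.9, 150 and 68.2 CPM in CD48hi MkPs. At an unadjusted p of 0.05 edgeR gave 2 lower and 6 higher of the megakaryocyte genes, 2 lower and 1 higher of the lymphoid genes and 5 higher of the stem cell genes, and DESeq2 called 1 megakaryocyte gene higher (Ppbp), 2 lymphoid genes lower (Dntt and Ighm) and 4 stem cell genes higher (Procr, Mecom, Hoxb5 and Mllt3). At that p edgeR gave 7 granulocyte-monocyte genes lower and 1 higher, 5 basophil and mast cell genes lower and 9 erythroid genes higher. DESeq2 called 7 granulocyte-monocyte genes lower and 1 higher (Lyz2), 4 basophil and mast cell genes lower and 8 erythroid genes higher. Over all genes edgeR gave 8.87% lower and 8.37% higher at that p, and DESeq2 called 3.19% lower and 2.67% higher. The share of reads from mitochondrially encoded genes was 2.61%, 0.482% and 2.91% in CD48-/lo replicates 1, 3 and 4 and 0.138% to 0.400% in CD48hi MkPs, so that CD48-/lo replicate 3 was near the CD48hi libraries. The part of these shifts in the results below was not tested, and in bulk libraries fewer cells of a type and less RNA per cell cannot be told apart.

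CD48hi replicates 4 and 5 stood apart from CD48hi replicates 1 and 3. Across the tested genes, Spearman's rank correlation of levels was 0.975 between replicates 4 and 5 and 0.969 between replicates 1 and 3, but 0.947 to 0.954 across these pairs. Values without CD48hi replicates 4 and 5, a choice made after the data were seen, are therefore given beside the results for the groups of autophagy genes and for the autophagy genes described with a test. CD48-/lo replicate 3 was also less like its own group, with correlations of 0.967 and 0.965 with CD48-/lo replicates 1 and 4, which reached 0.974 with each other, and of 0.968 with CD48hi replicate 3.

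Of the 40 tested autophagy genes, Dram1 alone was called at an adjusted p of 0.05 by edgeR's quasi-likelihood test with Benjamini-Hochberg adjustment over all tested genes, and it was lower in CD48-/lo MkPs. With no filter on low counts no autophagy gene was called, since the adjusted p of Dram1 was then 0.0676. In the test with the filter 0.192% of all tested genes were called. DESeq2 called 2 autophagy genes lower, Dram1 and Atg9b, and 0 higher, where it called 3.19% of all genes lower and 2.67% higher. At an unadjusted p of 0.05 edgeR gave 9 autophagy genes lower and 2 higher, beside 8.87% and 8.37% of all tested genes in those directions.

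The fitted difference was below 0 for 26 of the 40 genes and above 0 for 14, while 48.3% of all tested genes lay below 0. The median log2 difference of CD48-/lo over CD48hi MkPs was -0.34 for the autophagy genes and 0.03 for all tested genes, and it is the same with Dram1 placed at its bound. Some genes lay near 0, and 28 were below 0 with RLE scaling and 25 with no scaling factor. The libraries of the 2 subsets did not overlap for 7 autophagy genes that were lower in CD48-/lo MkPs and for 1 that was higher, whereas this held for 7.06% and 7.52% of all tested genes. Without CD48hi replicates 4 and 5 no gene in the table was called by edgeR, and 1798 genes had an unadjusted p under 0.05. At that p 1 autophagy gene was then lower (Dram1) and 3 were higher (Atg4a, Atg4a-ps and Rb1cc1), beside 3.62% lower and 6.89% higher of all tested genes. The median of the autophagy genes was -0.25 without these replicates. Leaving out 1 library moved this median to between -0.56 (without CD48-/lo replicate 3) and -0.22 (without CD48-/lo replicate 4). These differences are drawn by role in the plot of all tested members.

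**Figure D1:**
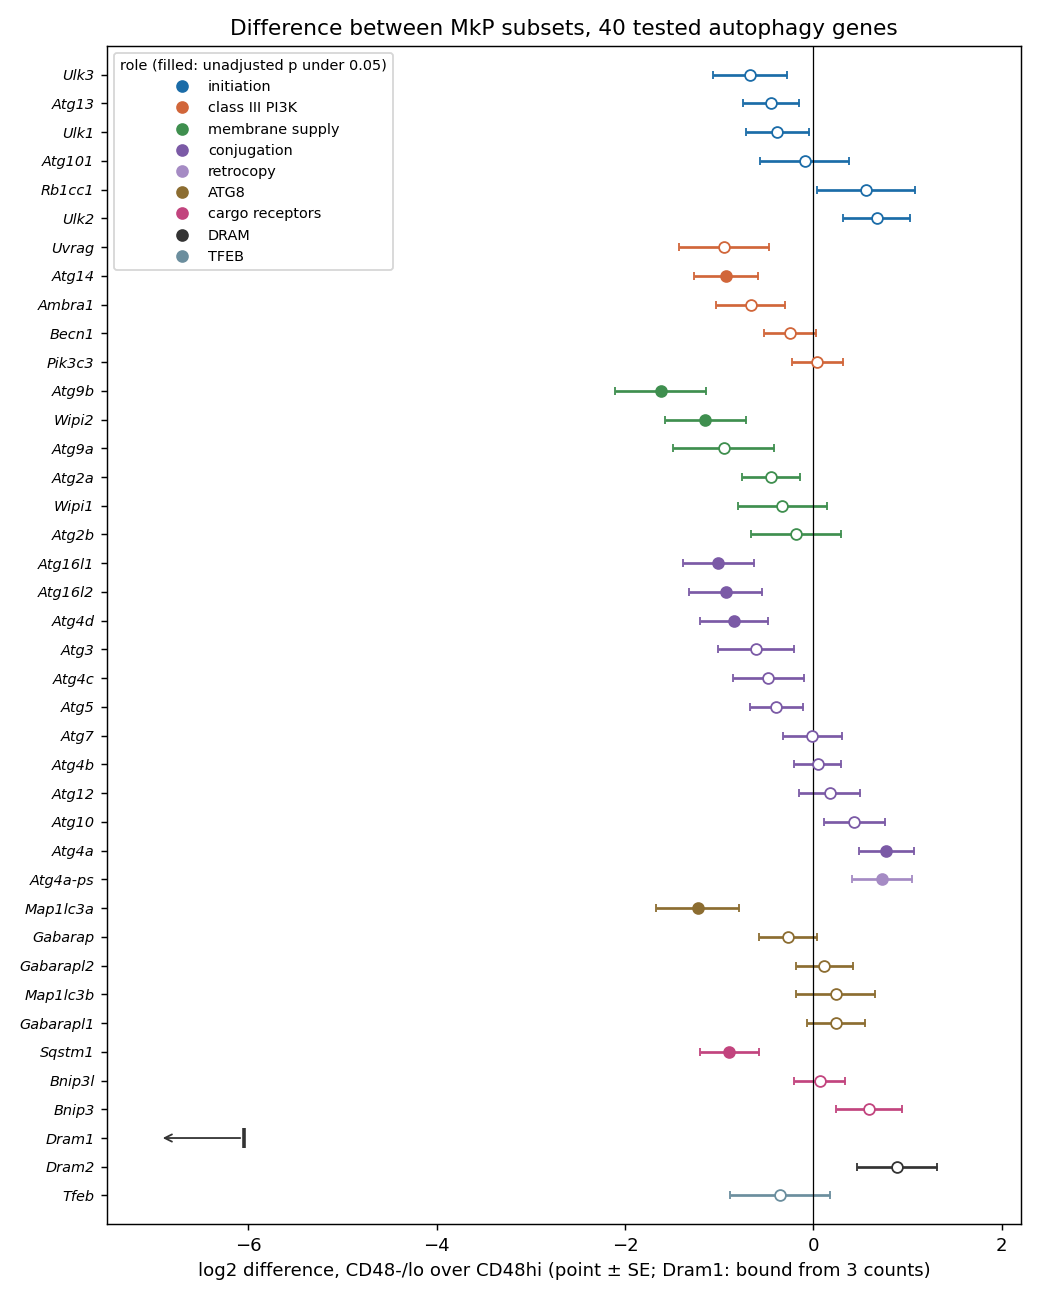
Log2 difference between CD48-/lo and CD48hi MkPs (x axis) for the 40 tested autophagy genes (y axis), grouped and coloured by role. Points are edgeR estimates with their standard errors, filled where the unadjusted p was under 0.05, and the arrow for Dram1 starts at the bound set by 3 reads over the CD48-/lo group. Of the 40 genes 26 lie left of 0, among them all 6 of the membrane supply group.

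Dram1 (ENSMUSG00000020057, chr10:88322804-88379080 on the minus strand of mm10) had no read in any CD48-/lo library, against 62, 82, 111 and 58 reads in CD48hi replicates 1, 3, 4 and 5. This was 0 CPM in each CD48-/lo library and 0.957, 1.51, 2.14 and 0.942 CPM in the CD48hi libraries. All CD48hi libraries were thus above all CD48-/lo libraries, and Dram1 passed the filter on low counts through CD48hi MkPs alone.

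For a bound, levels were taken per total count without TMM factors. Set against 3 reads over the CD48-/lo group, which stand for 0.0199 CPM on this scale, the pooled CD48hi level of 1.32 CPM makes Dram1 at least 66.2-fold lower in CD48-/lo MkPs, a bound for counting error only. The CD48-/lo libraries were made from fewer cells, 5348 to 6497 against 14033 to 20826 for CD48hi. The part of cell number in the lack of Dram1 reads was not tested. By edgeR's quasi-likelihood test the adjusted p was 0.0402, and by DESeq2 it was 3.03e-07. Because Dram1 entered the tested genes through the subset in which it was high, the edgeR value without the filter, 0.0676, stands beside it, and with at least 1 CPM required in 3 libraries Dram1 was not tested. The edgeR call held without CD48-/lo replicate 3 (adjusted p = 0.0436) and was lost when any other library was left out, with adjusted p-values of 0.0708 to 0.0837 without 1 CD48hi library, 0.0877 without CD48-/lo replicate 1 and 0.126 without CD48-/lo replicate 4. With CD48hi replicates 4 and 5 left out together it was 0.318, and the remaining CD48hi libraries still stood at 0.957 and 1.51 CPM.

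Among the tested genes 65 had no read in the CD48-/lo libraries and 10 had none in the CD48hi libraries. Of the 65 genes, 5 were called by edgeR, and 8 had as many CD48hi reads as Dram1 or more. These 8 were Tifab, Il10ra, Cilp2, Rtn4rl1, Jchain, Cyp4f18, Cyp27a1 and Dram1 itself, with 1255 summed CD48hi reads for Tifab, the most of them, and 313 for Dram1. Among the basophil and mast cell markers, Mcpt8 had 0, 0 and 0.0607 CPM in CD48-/lo MkPs and 8.52, 8.68, 16.7 and 17.2 CPM in CD48hi MkPs, while Fcer1a lay the other way. The part of such cells in the Dram1 reads was not tested.

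Dram2 (ENSMUSG00000027900, chr3:106547798-106575890, plus strand), the other DRAM gene, had 74.3, 55.4 and 80.7 CPM in CD48-/lo MkPs and 34.3, 71.7, 18.1 and 27.7 CPM in CD48hi MkPs. CD48hi replicate 3 lay inside the CD48-/lo range and the other 3 CD48hi libraries lay below it. The log2 difference was 0.89 ± 0.43 (SE), with an adjusted p of 0.313 in edgeR's quasi-likelihood test, and it was 0.40 without CD48hi replicates 4 and 5. The opposite signs of Dram1 and Dram2 were not tested against each other. Per kilobase of exon, Dram2 stood at 18.7 CPM in CD48-/lo MkPs and 10.1 CPM in CD48hi MkPs, and Dram1 at 0.455 CPM in CD48hi MkPs, the lowest level per kilobase of the 40 genes over all libraries.

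The 250 bases before the RefSeq start sites of Dram1 and Dram2 are shown because Dram1 was the one gene called. They come from build GRCm38.p6, 5′ to 3′ along each gene, for Dram1 at chr10:88357076-88357325 (minus strand) and for Dram2 at chr3:106547548-106547797 (plus strand). The Dram1 start used by RefSeq lies inside the gene span given above, which reaches further upstream to the start of another annotated transcript.
Dram1: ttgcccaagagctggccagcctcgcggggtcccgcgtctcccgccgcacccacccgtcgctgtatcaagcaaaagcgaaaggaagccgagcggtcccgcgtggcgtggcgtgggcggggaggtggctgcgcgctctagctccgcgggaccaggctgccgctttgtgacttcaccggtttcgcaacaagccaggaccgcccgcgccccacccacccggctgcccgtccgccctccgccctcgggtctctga
Dram2: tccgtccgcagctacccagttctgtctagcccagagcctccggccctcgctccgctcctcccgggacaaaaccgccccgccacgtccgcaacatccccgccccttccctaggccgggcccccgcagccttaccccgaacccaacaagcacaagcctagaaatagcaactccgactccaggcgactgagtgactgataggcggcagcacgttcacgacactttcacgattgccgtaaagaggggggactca
Both stretches were rich in G and C, with 71.6% for Dram1 and 63.6% for Dram2, beside a median of 52.4% over the 32851 windows of all genes and 60.8% over the 33 autophagy genes with a window. Neither held CACGTG, the core of the element through which TFEB acts on lysosomal and autophagy genes. This describes the 250 bases shown only, as sites elsewhere were not read, and control by TFEB was not tested.

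CACGTG, which reads the same on both strands, occurred in the windows (250 bases before to 50 after the start) of 5 of the 33 autophagy genes, namely Atg14, Atg3, Atg5, Atg7 and Bnip3, or 15.2%, beside 8.09% of all genes with a window. These shares were not matched for base composition. The longer GTCACGTG, which contains CACGTG, was found on either strand in Atg14, Atg3 and Atg7, and in 2.55% of all genes. The sites of Atg3 and Atg7 lay wholly before the RefSeq start, which for Atg7 is inside the longer span of the gene in the count table, and are shown with CACGTG in capitals, for Atg3 at chr16:45158713-45158785 and for Atg7 at chr6:114670942-114670991, both on the plus strand.
Atg3: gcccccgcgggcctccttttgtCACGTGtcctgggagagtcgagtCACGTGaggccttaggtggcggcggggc
Atg7: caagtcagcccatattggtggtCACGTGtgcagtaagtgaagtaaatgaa
In Atg3 the motif stood 94 and 71 bases before the start, and in Atg7 132 bases before it. A match describes the letters and is no measured binding site. The log2 differences of the 5 genes were -0.93 for Atg14, -0.61 for Atg3, -0.39 for Atg5, -0.01 for Atg7 and 0.59 for Bnip3, so they had no common sign. Tfeb itself was the least abundant gene per kilobase after Dram1, with 2.11, 3.26 and 2.26 CPM in CD48-/lo MkPs and 2.14, 3.44, 5.95 and 1.46 CPM in CD48hi MkPs. Its groups overlapped, and its log2 difference was -0.35 ± 0.53 (SE) with an adjusted p of 0.763 by edgeR. It was -0.14 without CD48hi replicates 4 and 5, and turned to 0.12 without CD48hi replicate 4 alone.

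**Figure D2:**
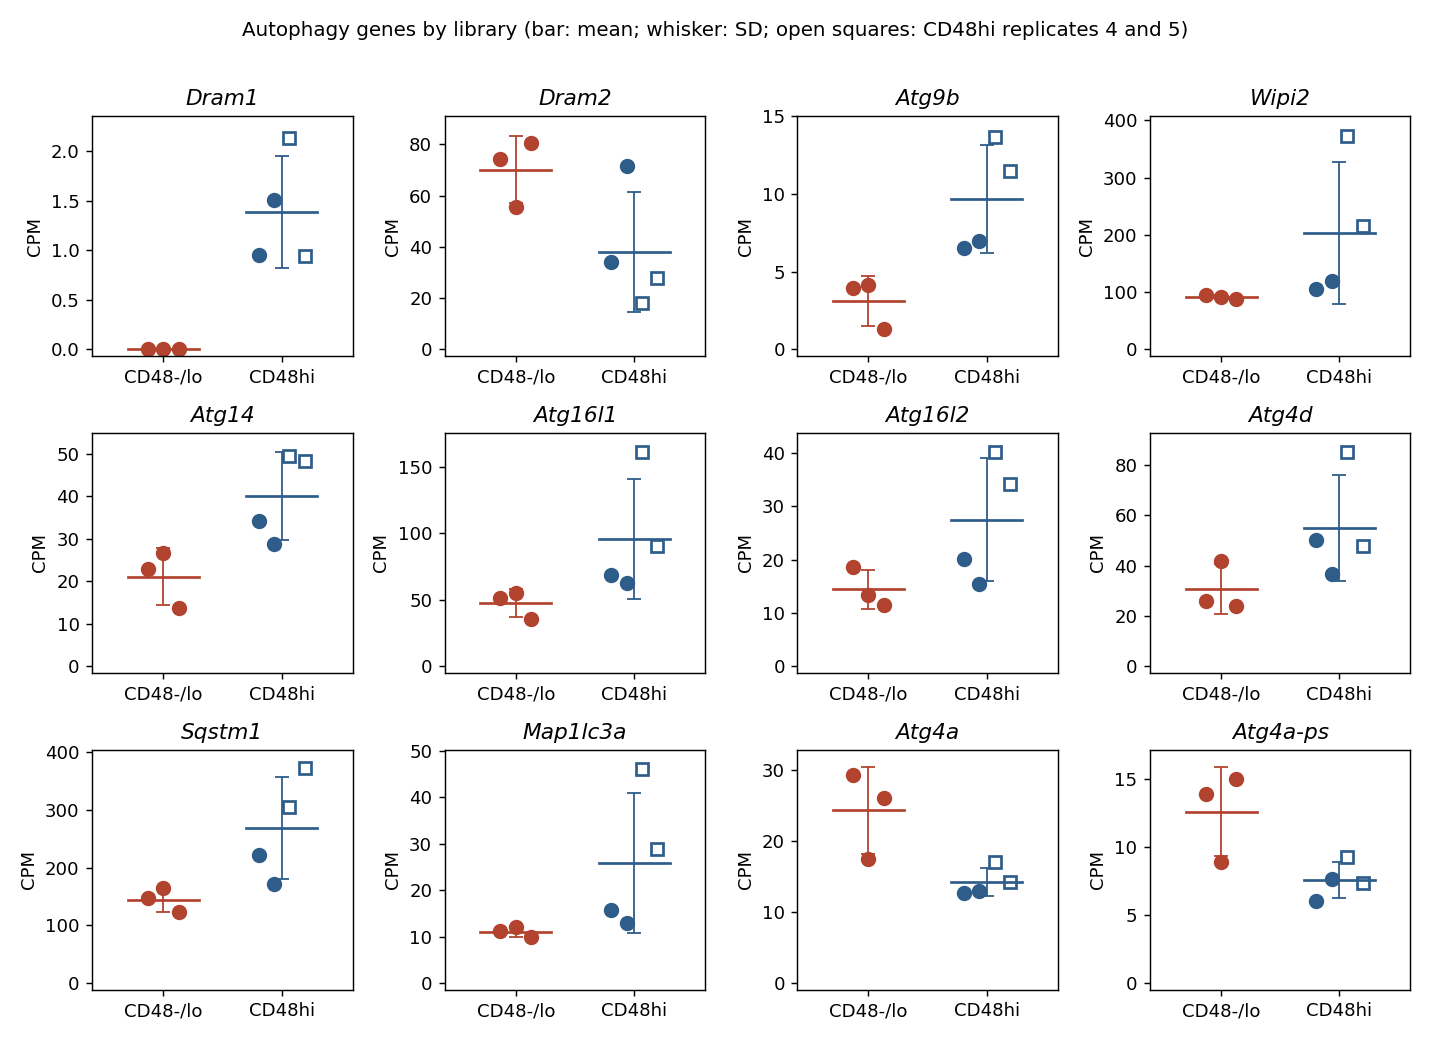
CPM (y axis, from 0) of 12 autophagy genes in each CD48-/lo and CD48hi library, with the mean as a bar and the SD as whiskers. Dram1 is at 0 in all 3 CD48-/lo libraries, and the open squares show that CD48hi replicates 4 and 5 are the upper pair of the CD48hi libraries for Atg9b, Wipi2, Atg14, Atg16l1, Atg16l2, Sqstm1, Map1lc3a and Atg4a.

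The initiation complex joins the kinases ULK1 and ULK2 with ATG13, ATG101 and the scaffold RB1CC1, also called FIP200. The group read here also holds Ulk3 (log2 difference -0.67), which is not among the subunits named. None of the 6 tested genes of the group reached an unadjusted p of 0.05. Of these genes 4 lay below 0 and 2 above, with a median log2 difference of -0.24. Without CD48hi replicates 4 and 5 the split was 3 and 3 and the median -0.17. Atg101 was the most abundant of them per kilobase and had 71.0, 74.0 and 69.8 CPM in CD48-/lo MkPs and 155, 69.2, 50.6 and 30.2 CPM in CD48hi MkPs. The CD48-/lo libraries were nearly equal and lay inside the wide CD48hi range, so that the log2 difference of -0.09 ± 0.47 (SE) turned to 0.46 when CD48hi replicate 1 was left out and was -0.66 without CD48hi replicates 4 and 5. Ulk1 averaged 9.98 ± 2.07 CPM in CD48-/lo MkPs and 13.02 ± 3.82 CPM in CD48hi MkPs (SD, n = 3 and 4), and Ulk2 averaged 16.9 ± 7.001 CPM in CD48-/lo MkPs and 10.6 ± 1.55 CPM in CD48hi MkPs. Both kinases overlapped between the subsets.

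The class III phosphatidylinositol 3-kinase complex makes the lipid that marks the nascent autophagosome. Its catalytic subunit is PIK3C3 (VPS34), its scaffold is BECN1, and ATG14 or UVRAG directs it to autophagosome formation or to endosomal traffic. Atg14 had 22.9, 26.7 and 13.7 CPM in CD48-/lo MkPs and 34.1, 28.7, 49.5 and 48.3 CPM in CD48hi MkPs. Every CD48-/lo library was below every CD48hi library, although CD48-/lo replicate 3 and CD48hi replicate 3 were close. The log2 difference was -0.93 ± 0.34 (SE) with an unadjusted p of 0.0202 and an adjusted p of 0.234 by edgeR's quasi-likelihood test, and it was -0.58 without CD48hi replicates 4 and 5.

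Becn1, the most abundant gene of the complex per kilobase, overlapped between the subsets, with 127, 186 and 143 CPM in CD48-/lo MkPs and 238, 143, 173 and 170 CPM in CD48hi MkPs. Its log2 difference was -0.25 ± 0.28 (SE), with an adjusted p of 0.666 by edgeR, and was -0.33 without CD48hi replicates 4 and 5 and -0.56 without CD48-/lo replicate 3. Of its exon bases 43.9% overlap Cntd1 on the opposite strand, which averaged 1.42 CPM in CD48-/lo MkPs and 1.98 CPM in CD48hi MkPs. Pik3c3 averaged 81.3 ± 7.49 CPM in CD48-/lo MkPs and 78.9 ± 17.6 CPM in CD48hi MkPs (SD, n = 3 and 4), the closest pair of means in the complex. Uvrag had 42.2, 34.4 and 37.2 CPM in CD48-/lo MkPs and 32.3, 35.2, 121 and 105 CPM in CD48hi MkPs. For Uvrag the distance thus lay inside the CD48hi group, between replicates 4 and 5 and the others. Over the complex, 4 of 5 genes lay below 0 and the median log2 difference was -0.67, or -0.33 without CD48hi replicates 4 and 5.

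ATG9 proteins are lipid scramblases that arrive in vesicles, ATG2 proteins carry lipids into the growing membrane, and WIPI proteins bind the lipid made by the class III kinase. All 6 genes of this group lay below 0, with a median log2 difference of -0.70, and they did so with RLE scaling (-0.75) and with no scaling factor (-0.64). Without CD48hi replicates 4 and 5 the count was 5 of 6 and the median -0.32.

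Atg9b was the member with the smallest p after Dram1. It had 3.96, 4.16 and 1.29 CPM in CD48-/lo MkPs, and it had 6.54, 6.97, 13.7 and 11.5 CPM in CD48hi MkPs. The subsets did not overlap, and CD48-/lo replicate 4 was lowest. Its log2 difference was -1.62 ± 0.49 (SE), a level 3.08-fold higher in CD48hi MkPs, with an unadjusted p of 0.00707 and an adjusted p of 0.181 in edgeR's quasi-likelihood test and an adjusted p of 0.0235 in DESeq2. It was -1.11 without CD48hi replicates 4 and 5. Of the exon bases of Atg9b, 7.45% also lie in an exon of Nos3 on the opposite strand. Since nothing states whether reads were counted by strand, reads of such overlapping genes cannot be told apart. Of all members, 11 have an exon that overlaps a tested gene on the opposite strand. Atg9b is not among them, because Nos3 was not tested. Atg9a, the relative of Atg9b found in most tissues, averaged 4.25 ± 1.74 CPM in CD48-/lo MkPs and 8.22 ± 4.44 CPM in CD48hi MkPs (SD, n = 3 and 4), with overlapping groups, and 31.8% of its exon bases lie in Gm29253 on the same strand.

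Wipi2, which brings ATG16L1 to the membrane, had 95.7, 91.9 and 87.4 CPM in CD48-/lo MkPs and 105, 119, 373 and 216 CPM in CD48hi MkPs. The groups did not overlap, but CD48hi replicates 1 and 3 were close to the CD48-/lo libraries and replicates 4 and 5 were far above both. Wipi2 had a log2 difference of -1.15 ± 0.43 (SE), with an adjusted p of 0.240 by edgeR, or -0.30 without CD48hi replicates 4 and 5. Atg2a, Atg2b and Wipi1 had log2 differences of -0.45, -0.18 and -0.33, each with overlapping groups.

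In the conjugation machinery, ATG7 is the activating enzyme, ATG3 and ATG10 are the conjugating enzymes, the ATG12-ATG5-ATG16L1 complex completes the attachment of ATG8 proteins to lipid, and the ATG4 proteases process and release them. Of the 11 genes, 7 lay below 0 and 4 above, with a median log2 difference of -0.39. With no scaling factor the split was 6 and 5, and without CD48hi replicates 4 and 5 it was also 6 and 5, with a median of -0.08.

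Atg16l1 had 51.2, 55.3 and 35.7 CPM in CD48-/lo MkPs and 68.8, 62.5, 161 and 90.1 CPM in CD48hi MkPs, with no overlap. CD48hi replicate 4 was the highest by far. Its log2 difference was -1.01 ± 0.38 (SE), with an adjusted p of 0.240 by edgeR. Its paralogue Atg16l2 had 18.5, 13.4 and 11.4 CPM in CD48-/lo MkPs and 20.1, 15.5, 40.2 and 34.2 CPM in CD48hi MkPs, so that CD48-/lo replicate 1 lay above CD48hi replicate 3. For Atg16l2 the log2 difference was -0.93 ± 0.39 (SE), with an adjusted p of 0.264 by edgeR. Without CD48hi replicates 4 and 5 the values were -0.48 for Atg16l1 and -0.31 for Atg16l2.

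Atg3 was the most abundant conjugation gene per kilobase, with 154, 170 and 115 CPM in CD48-/lo MkPs and 125, 128, 336 and 304 CPM in CD48hi MkPs. CD48hi replicates 1 and 3 lay inside the CD48-/lo range, and the log2 difference of -0.61 ± 0.40 (SE) turned to 0.20 without CD48hi replicates 4 and 5. Atg5 averaged 92.7 ± 18.1 CPM in CD48-/lo MkPs and 122 ± 23.8 CPM in CD48hi MkPs (SD, n = 3 and 4). Atg7 averaged 35.9 ± 2.72 CPM in CD48-/lo MkPs and 36.3 ± 11.8 CPM in CD48hi MkPs, and had the log2 difference nearest 0 of all members. Atg4d, a protease that acts chiefly in releasing ATG8 proteins from lipid, had 25.9, 41.9 and 24.0 CPM in CD48-/lo MkPs and 50.1, 36.7, 85.0 and 47.8 CPM in CD48hi MkPs, where CD48-/lo replicate 3 lay above CD48hi replicate 3. Its log2 difference was -0.84 ± 0.36 (SE), with an adjusted p of 0.273 by edgeR. It was -0.51 without CD48hi replicates 4 and 5 and -0.55 without CD48hi replicate 4 alone, and 19.3% of its exon bases overlap Kri1 on the opposite strand.

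Atg4a, another ATG4 protease gene, was the one member with every CD48-/lo library above every CD48hi library. It had 29.2, 17.5 and 26.0 CPM in CD48-/lo MkPs and 12.6, 12.98, 17.0 and 14.1 CPM in CD48hi MkPs, although CD48-/lo replicate 3 and CD48hi replicate 4 nearly met. The log2 difference was 0.77 ± 0.29 (SE), with an unadjusted p of 0.0237 and an adjusted p of 0.240 by edgeR's quasi-likelihood test, and it was 0.91 without CD48hi replicates 4 and 5. Atg4a-ps, which the count table annotates as protein-coding, is an intronless copy of Atg4a on chromosome 3. It had 13.9, 8.91 and 15.0 CPM in CD48-/lo MkPs and 6.05, 7.67, 9.22 and 7.36 CPM in CD48hi MkPs. Only CD48-/lo replicate 3 fell within the CD48hi range, and the log2 difference was 0.73 ± 0.32 (SE) with an adjusted p of 0.277 by edgeR, or 0.87 without CD48hi replicates 4 and 5.

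The reads of Atg4a and Atg4a-ps are uncertain, because their coding sequences of 1188 bases differ at 7 bases in the GENCODE annotation of mm10, an identity of 99.41%, with an unbroken identical run of 506 bases. The authors counted uniquely aligned reads, so reads from identical stretches may be missing from both, and how the remaining reads divide between the pair was not tested. The 120 coding bases with the most differences, bases 61 to 180 counted from the A of the start codon, show how little separates them, with the 3 differing bases in capitals.
Atg4a: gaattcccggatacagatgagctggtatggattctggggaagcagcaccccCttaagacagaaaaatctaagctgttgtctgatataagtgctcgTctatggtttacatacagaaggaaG
Atg4a-ps: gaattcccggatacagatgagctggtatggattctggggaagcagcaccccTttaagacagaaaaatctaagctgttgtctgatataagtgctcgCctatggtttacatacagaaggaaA
The other ATG4 genes did not share the direction of Atg4a, with log2 differences of 0.05 for Atg4b and -0.48 for Atg4c beside -0.84 for Atg4d, and none of these was called.

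The ATG8 proteins coat the autophagosome and bind cargo. Their 5 genes lay on both sides of 0, with a median log2 difference of 0.12 that became -0.31, with 5 of 5 genes below 0, when CD48hi replicates 4 and 5 were left out. Map1lc3a had 11.2, 12.1 and 9.93 CPM in CD48-/lo MkPs and 15.8, 13.02, 46.1 and 28.8 CPM in CD48hi MkPs. The groups did not overlap, with CD48hi replicate 3 just above the CD48-/lo libraries. The log2 difference was -1.23 ± 0.44 (SE), with an adjusted p of 0.229 by edgeR, and it was -0.39 without CD48hi replicates 4 and 5.

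Gabarap, the highest of all members per kilobase, had 158, 215 and 155 CPM in CD48-/lo MkPs and 294, 221, 201 and 133 CPM in CD48hi MkPs, with a log2 difference of -0.27 ± 0.31 (SE) and an adjusted p of 0.683 by edgeR. This value was -0.55 without CD48hi replicates 4 and 5, -0.58 without CD48-/lo replicate 3 and -0.14 without CD48hi replicate 1. Map1lc3b had 253, 313 and 293 CPM in CD48-/lo MkPs and 443, 262, 131 and 135 CPM in CD48hi MkPs. Both CD48hi replicates 4 and 5 lay below both CD48hi replicates 1 and 3 for Gabarap, Gabarapl1, Gabarapl2 and Map1lc3b and above them for Map1lc3a. Map1lc3b and Map1lc3a, which both encode LC3 proteins, thus differed in opposite directions within the CD48hi group.

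The cargo receptors were represented by SQSTM1 (p62), which links ubiquitinated proteins to ATG8 proteins and is itself degraded by autophagy, and by the mitophagy receptors BNIP3 and BNIP3L (NIX), of which BNIP3L is needed for the loss of mitochondria from red cell precursors. Sqstm1 had 147, 164 and 122 CPM in CD48-/lo MkPs, and it had 223, 172, 305 and 373 CPM in CD48hi MkPs. All CD48-/lo libraries were below all CD48hi libraries, though CD48-/lo replicate 3 and CD48hi replicate 3 differed little. The log2 difference was -0.89 ± 0.32 (SE), with an unadjusted p of 0.0172 and an adjusted p of 0.223 by edgeR's quasi-likelihood test, and -0.46 without CD48hi replicates 4 and 5. Of its exon bases 17.3% overlap Mrnip on the opposite strand, whose mean level was 5.77 CPM in CD48-/lo MkPs and 5.76 CPM in CD48hi MkPs. Bnip3 averaged 23.4 ± 5.75 CPM in CD48-/lo MkPs and 15.6 ± 5.35 CPM in CD48hi MkPs (SD, n = 3 and 4), and Bnip3l averaged 204 ± 6.34 CPM in CD48-/lo MkPs and 194 ± 47.8 CPM in CD48hi MkPs. Neither mitophagy receptor was separated between the subsets. Of the 3 receptor genes 1 lay below 0, with a median log2 difference of 0.07, and without CD48hi replicates 4 and 5 it was 2 of 3, with a median of -0.16.

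**Figure D3:**
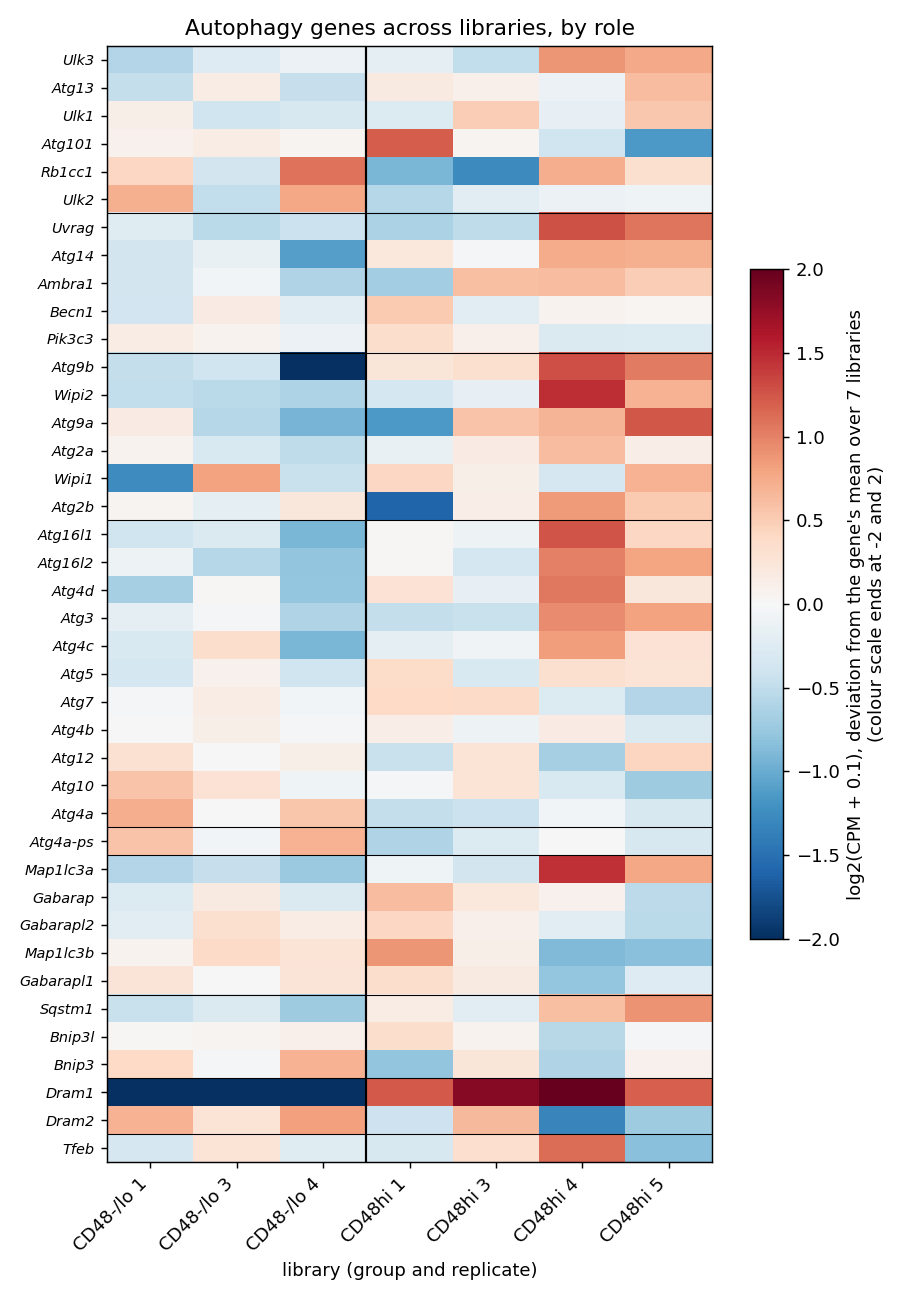
Deviation of log2(CPM + 0.1) from the mean of each gene over the 7 libraries (colour, red above and blue below) for the 40 tested autophagy genes (rows, by role) in the CD48-/lo and CD48hi libraries (columns). CD48hi replicates 4 and 5 are both above CD48hi replicates 1 and 3 for 16 genes and both below for 10, and Dram1 is the only row with 0 reads in a whole group.

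The coefficient of variation over the 4 CD48hi libraries ran from 14.1% for Atg4a to 72.0% for Atg101. Both CD48hi replicates 4 and 5 were above both replicates 1 and 3 for 16 of the 40 genes (40% beside 27.8% of all tested genes) and below them for 10 (25% beside 26.1%). The heat map of deviations shows these as the red and blue cells of the last columns. Genes with longer exon sequence tended to be higher in CD48hi replicates 4 and 5, with a Spearman correlation between exon length and that difference of 0.39 over 16653 genes and 0.37 over the 40 autophagy genes, which share the same libraries. Between the subsets the correlation of exon length with the log2 difference was -0.13 and -0.18 over the same sets. The part of transcript length in these differences was not tested.

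On the scale of CPM per kilobase of exon, levels over all libraries spanned from 0.260 for Dram1 to 107 for Gabarap. Gabarap, Gabarapl1, Sqstm1, Atg3 and Bnip3l, in this order, were the highest. Per kilobase, Gabarap had 95.6 CPM in CD48-/lo MkPs and 115 CPM in CD48hi MkPs, whereas Gabarapl1 had 79.7 CPM in CD48-/lo MkPs and 67.4 CPM in CD48hi MkPs. At the low end Tfeb, Atg9a, Rb1cc1 and Atg9b followed Dram1.

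**Figure D4:**
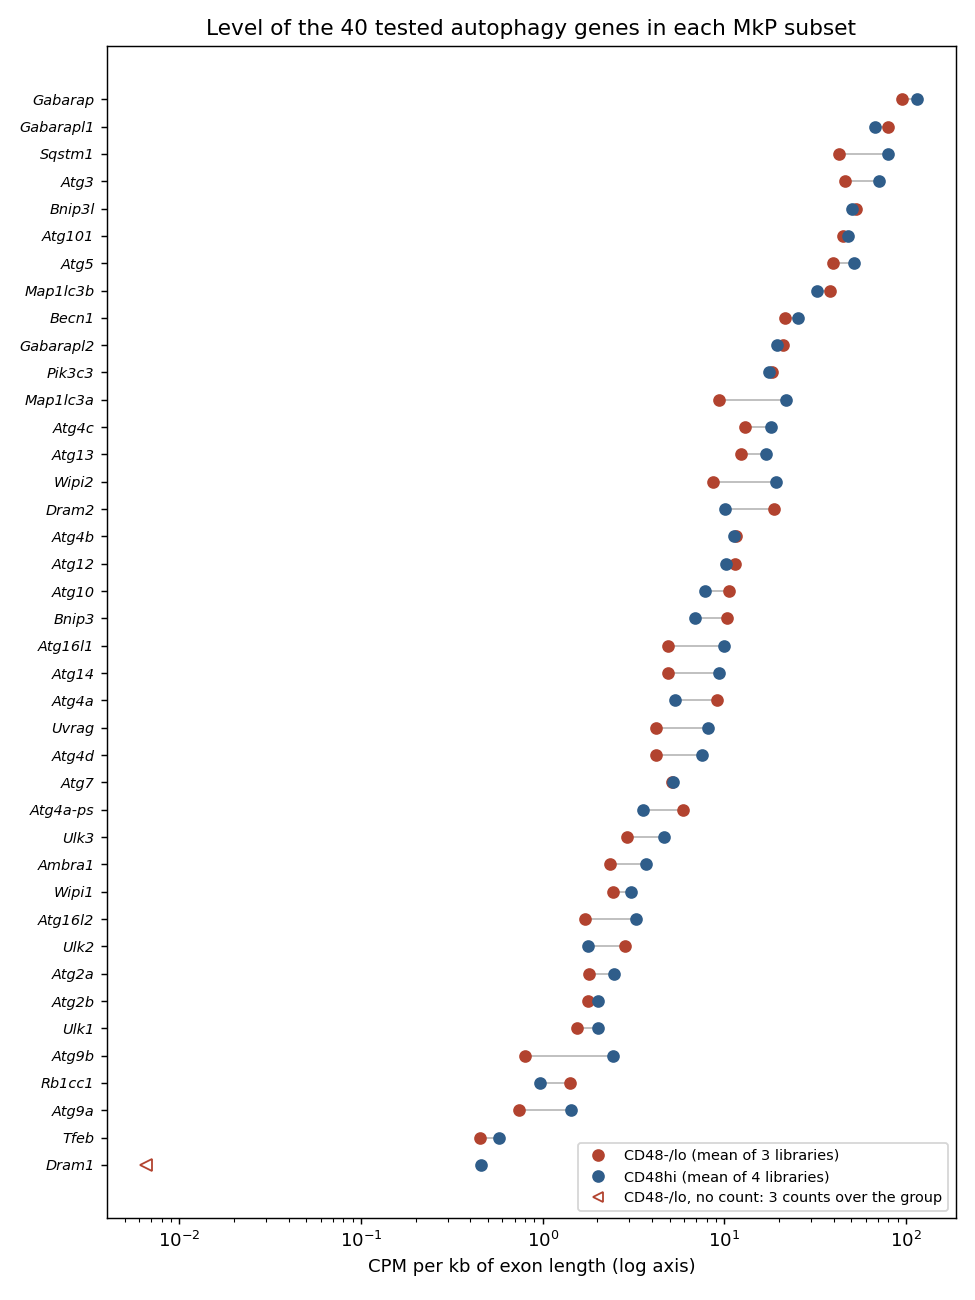
Mean level in CPM per kilobase of exon (x axis, log scale) of the 40 tested autophagy genes (y axis) in CD48-/lo and CD48hi MkPs. Gabarap is highest and Dram1 lowest, with an open triangle at the level of 3 reads over the CD48-/lo group in place of its CD48-/lo value of 0.

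The wider pathway was read from further lists. Of 50 other autophagy genes, 0 were called by edgeR, while 4 had an unadjusted p under 0.05 in the lower direction and 2 in the higher, beside 8.87% lower and 8.37% higher over all tested genes, and their median log2 difference was -0.16. DESeq2 called 1 of them, Optn, which encodes the mitophagy receptor optineurin, with 49.9, 88.7 and 55.2 CPM in CD48-/lo MkPs and 145, 101, 309 and 200 CPM in CD48hi MkPs. These groups did not overlap, and the log2 difference of Optn was -1.55 ± 0.41 (SE), with an adjusted p of 0.149 by edgeR and 0.00777 by DESeq2. Prkaa2, a catalytic subunit of the energy sensor AMPK, averaged 5.82 ± 3.31 CPM in CD48-/lo MkPs and 1.76 ± 0.933 CPM in CD48hi MkPs (SD, n = 3 and 4), with an adjusted p of 0.195 by edgeR. Zfyve1, which encodes DFCP1, a protein of the membrane platform from which autophagosomes form, averaged 13.6 ± 3.58 CPM in CD48-/lo MkPs and 25.5 ± 7.03 CPM in CD48hi MkPs, with an adjusted p of 0.240 by edgeR.

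Lysosome genes, whose products receive the cargo, were read likewise. Of 36, edgeR called 0 and DESeq2 called 1, 4 had an unadjusted edgeR p under 0.05 in the lower direction and 2 in the higher, and the median log2 difference was -0.31. Over all genes the shares were 8.87% lower and 8.37% higher for the unadjusted edgeR p, and 3.19% lower for the DESeq2 call. Tmem192, a lysosomal membrane protein gene, had 24.6, 19.2 and 18.3 CPM in CD48-/lo MkPs and 39.9, 24.9, 74.4 and 70.1 CPM in CD48hi MkPs, with no overlap, though CD48-/lo replicate 1 and CD48hi replicate 3 were almost equal. Its adjusted p was 0.181 by edgeR and 0.0215 by DESeq2. Fnip1, a partner of folliculin in nutrient sensing, had a log2 difference of 0.93 ± 0.36 (SE) and was not called by edgeR or DESeq2.

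Since DRAM1 is known as a p53 target, 20 other p53 target genes were also read. EdgeR called 0 and DESeq2 called 1 of them, 3 had an unadjusted edgeR p under 0.05 in the higher direction and 1 in the lower, and the median log2 difference was -0.30. Over all genes these shares were 8.37% higher and 8.87% lower by edgeR, and 2.67% higher by DESeq2. Plk2, a polo-like kinase gene, was the one called by DESeq2, with 3.62, 1.202 and 5.30 CPM in CD48-/lo MkPs and 1.02, 1.23, 0.597 and 0.747 CPM in CD48hi MkPs (adjusted p = 0.184 by edgeR and 0.0414 by DESeq2). CD48-/lo replicate 3 lay within the CD48hi range. Pmaip1, which encodes the death-promoting protein NOXA, had 0, 1.47 and 0 CPM in CD48-/lo MkPs and 5.25, 5.55, 4.49 and 6.38 CPM in CD48hi MkPs. It was lower in every CD48-/lo library than in any CD48hi library, with an adjusted p of 0.242 by edgeR and 0.294 by DESeq2. Eda2r, a death receptor gene, had 2.43, 2.33 and 2.55 CPM in CD48-/lo MkPs and 0.278, 0.423, 1.23 and 1.04 CPM in CD48hi MkPs, and its adjusted p was 0.234 by edgeR. The 3 p53 targets of smallest p thus lay on both sides of 0.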

How the data were processed

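Bulk RNA-seq libraries of sorted MkPs were made by oligo-dT priming, template switching and PCR, without molecular identifiers, so the bound from 3 reads covers counting error only, while SDs and SEs measure the spread between libraries. Per the submitters' processing notes, FastQC, GSNAP and featureCounts 2.0.1 were used with build mm10 and Ensembl release 98, and the deposited raw counts hold uniquely aligned reads per gene. For the strand setting of the counting, the sources used here give nothing. Their normalized counts and other derived tables were not used. Here R 4.3.3 and edgeR 4.0.16 were used. Genes passing filterByExpr were scaled by TMM, and CD48-/lo was set over CD48hi in all 7 libraries by the quasi-likelihood test, adjusted over the 16653 tested genes, at a threshold of 0.05, with a prior count of 0.125. CPM use TMM-scaled totals, except in the bound from 3 reads for Dram1, which uses unscaled totals. Levels per kilobase use the deposited exon length. Unadjusted p-values come from the same test. Alternatives were DESeq2 1.42.0, voom with quality weights (limma 3.58.1), RLE or no scaling, no filter or at least 1 CPM in 3 libraries, an adjusted p of 0.1, thinned counts, left-out genes or libraries, a prior count of 2 and the replicate number as a block. The scripts were tested on simulated data. Promoter windows came from RefSeq (GRCm38.p6), and exon overlaps and the copies of Atg4a from GENCODE M21.

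Values, folds and tests are given for Dram1 and Dram2, for each member called by edgeR or DESeq2 or with an unadjusted edgeR p under 0.05, and for the member of each role highest per kilobase; from other pathway lists, for called genes or the 3 of smallest p. Further genes are named with values only. A gene that this rule names among the lysosome genes is not reported here. The members and lists were chosen with earlier results of these data known.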

Additional observations from a re-analysis of the deposited data

Results flagged for a closer look

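Within the 4 CD48hi libraries, 40 autophagy genes were examined for a library far from the others. Atg5 in CD48hi replicate 3 was at 86.4 CPM, with the nearest CD48hi library at 130 CPM, and Ambra1, a regulator of BECN1, in CD48hi replicate 1 was at 11.05 CPM, with the nearest at 25.4 CPM. In both genes 1 library lay far below the other 3. Chance alone flags about 1 in 20 groups of this size.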

How the results depend on the processing

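Dram1 had 0 reads in every CD48-/lo library, so no alternative could turn its direction. By edgeR its call was lost with no filter on low counts (adjusted p = 0.0676) and without CD48hi replicates 4 and 5 (0.318). It was also lost with the replicate block on 6 libraries (0.0531, and 0.0837 with no replicate block on the same libraries). When 1 library was left out, the adjusted p of Dram1 ranged over 0.0436 to 0.126. At least 1 CPM in 3 libraries left Dram1 untested. The autophagy genes called then numbered 0 with no filter, with the stricter filter, with the replicate block and without CD48hi replicates 4 and 5, 2 by DESeq2, and 0 to 1 when 1 library was left out. Their median ranged over -0.56 to -0.22 when 1 library was left out, lowest without CD48-/lo replicate 3. Of the other autophagy genes, DESeq2 and voom each called 1. Over all genes, 57 were called with RLE, 10 with no filter, 64 with the stricter filter, 1028 by DESeq2, 393 by voom, 4 with no replicate block on 6 libraries, 54 after thinning, 0 without CD48hi replicates 4 and 5, 187 at an adjusted p of 0.1, and 1 to 72 when 1 library was left out, beside 32. The replicate block gave 29, beside the 4 with no block on the same 6 libraries. Deviations from the group mean had correlations of -0.08, -0.15 and -0.03 between same-numbered libraries. These 3 values cannot decide whether the libraries were paired. Of 304 comparisons for the other 16 named genes, 4 turned the sign: Atg3 (0.20, without CD48hi replicates 4 and 5), Atg101 (0.41 by voom and 0.46 without CD48hi replicate 1) and Tfeb (0.12 without CD48hi replicate 4). When 1 library was left out, Atg101 ranged over -0.36 to 0.46 and Tfeb over -0.67 to 0.12. DESeq2 added a call of Atg9b (adjusted p = 0.0235), and the other comparisons kept direction and call. The causes were not tested. With 3 libraries against 4, the median SE of the autophagy genes was 0.36 on the log2 scale, which limits what could be told from 0.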
